A study of Mus musculus with 24 samples.

Results

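The 35 genes described here are a listed set of cell cycle genes, taken by symbol, with no threshold on their values, out of 54532 gene identifiers in the deposited tables. They fall into 3 classes: 5 G1 cyclins (Ccnd1, Ccnd2, Ccnd3, Ccne1, Ccne2), 10 genes of DNA replication (Mcm2 to Mcm7, Pcna, Cdc45, Rrm2, Tyms) and 20 genes of mitosis and its regulation. All 35 matched 1 identifier each and all passed the filter on low counts. These genes and the other gene lists below were chosen with earlier results of these data known. Their shares of calls are thus not independent of the data. RNA of mouse kidney was sequenced in 24 libraries, 6 in each of 4 groups. Knockout (KO) kidneys came from mice labelled PTC LRP2-SM22 -/-, and wild-type (WT) kidneys from +/+ mice, which the series record calls littermates. The record gives the deletion of Lrp2, the gene for the endocytic receptor megalin, as specific to proximal tubule cells; the sources used here give neither the Cre driver, the meaning of SM22, the strain, the sex nor the age. Both genotypes were fed a Western diet, for 2 or 12 weeks, so no group serves as a control for the diet. No label states that the libraries are from different mice, and the p-values therefore reflect library-to-library spread, which may be technical.

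Libraries held 16.3 to 25.2 megacounts in KO and 15.6 to 34.1 in WT at 2 weeks, and 11.3 to 15.2 in KO and 11.4 to 14.5 in WT at 12 weeks. Levels are counts per megacount of the scaled library (CPM). Lrp2 ranged over 192 to 584 CPM in KO and 1590 to 2290 CPM in WT at 2 weeks, and over 186 to 390 CPM in KO and 1410 to 2500 CPM in WT at 12 weeks, without overlap. The 8 defining proximal tubule markers summed to between 4630 and 12200 CPM in every library, so RNA of the labelled tissue was present throughout. Mitochondrial genes took 5.56 to 10.14% of counts in KO and 8.11 to 9.83% in WT at 2 weeks, and 9.31 to 11.94% in KO and 12.05 to 14.52% in WT at 12 weeks. Duration and such differences between the sets of libraries cannot be told apart.

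The cell cycle runs through a growth gap (G1), DNA synthesis (S), a second gap (G2) and mitosis (M). D-type cyclins activate Cdk4 and Cdk6 in G1, E-type cyclins activate Cdk2 at the start of S phase, and both lead to release of E2F factors from the retinoblastoma family. E2F targets include the replication genes, whereas many G2 and M genes carry a CHR element and CCAAT boxes, bound by the DREAM and MuvB complexes, B-Myb, FoxM1 and NF-Y. Most cells of the adult kidney are quiescent, and tubule cells re-enter the cycle after injury.

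These elements were searched on both strands of the 26 members with a promoter in the RefSeq table (build GRCm38.p6, 250 bases before to 50 bases after the start site). The CHR letters TTTGAA were found in 11 of 15 mitosis promoters, 2 of 9 replication promoters and 0 of 2 G1 cyclin promoters, against 20.2% of the promoters of 27025 genes. CCAAT was found in 14 of 15 mitosis, 8 of 9 replication and 1 of 2 G1 cyclin promoters, against 41.1% of all. One of 4 E2F forms (TTTGGCGC, TTTCCCGC, TTTCGCGC, TTTGCCGC) was found in 4 of 9 replication promoters (Mcm3, Mcm5, Mcm6, Mcm7), 1 of 15 mitosis promoters (Cdk1) and 0 of 2 G1 cyclin promoters, against 2.6% of all. A match is a description of letters and not a bound site, and members without a match may be bound elsewhere.

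Of the members in the table, the 2 replication and the 2 mitosis genes with the smallest adjusted p at 2 weeks are shown to let these layouts be compared, with matches in capitals. They lie at chr1:20820263-20820562 (Mcm3, minus strand), chr8:75109259-75109558 (Mcm5, plus strand), chr1:189688037-189688336 (Cenpf, minus strand) and chr2:164769679-164769978 (Ube2c, plus strand). In the Mcm3 sequence GCGGGAAA and ATTGG are matches on the opposite strand.
Mcm3: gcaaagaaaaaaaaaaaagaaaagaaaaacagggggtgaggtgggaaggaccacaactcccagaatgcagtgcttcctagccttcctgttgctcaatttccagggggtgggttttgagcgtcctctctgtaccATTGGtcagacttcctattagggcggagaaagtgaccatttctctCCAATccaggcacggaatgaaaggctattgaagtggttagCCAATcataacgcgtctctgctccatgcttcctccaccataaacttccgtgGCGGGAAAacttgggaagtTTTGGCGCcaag
Mcm5: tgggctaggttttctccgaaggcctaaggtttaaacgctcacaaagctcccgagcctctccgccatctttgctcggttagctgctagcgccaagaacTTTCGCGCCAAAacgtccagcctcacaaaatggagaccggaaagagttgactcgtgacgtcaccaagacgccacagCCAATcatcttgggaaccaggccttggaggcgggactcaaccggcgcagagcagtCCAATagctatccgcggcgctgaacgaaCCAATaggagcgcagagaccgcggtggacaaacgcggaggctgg
Cenpf: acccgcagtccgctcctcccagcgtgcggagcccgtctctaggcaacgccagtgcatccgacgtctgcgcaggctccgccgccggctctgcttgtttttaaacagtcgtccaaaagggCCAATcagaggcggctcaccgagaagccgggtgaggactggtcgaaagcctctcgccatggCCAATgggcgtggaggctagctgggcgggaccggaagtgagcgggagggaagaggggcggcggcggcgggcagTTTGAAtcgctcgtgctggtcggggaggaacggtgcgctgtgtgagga
Ube2c: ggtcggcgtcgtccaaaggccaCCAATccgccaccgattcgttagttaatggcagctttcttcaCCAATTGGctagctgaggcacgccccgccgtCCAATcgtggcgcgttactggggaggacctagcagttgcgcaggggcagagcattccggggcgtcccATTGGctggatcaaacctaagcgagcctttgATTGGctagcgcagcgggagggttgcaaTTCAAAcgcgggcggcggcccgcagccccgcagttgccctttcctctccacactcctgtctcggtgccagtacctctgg
Mcm3 carried 2 separate E2F forms, Mcm5 carried 2 that overlap each other, and both carried 3 CCAAT matches. Cenpf carried the CHR letters 2 bases past the start site with 2 CCAAT matches upstream. Ube2c carried the CHR letters on the opposite strand at -29 (as TTCAAA) and 6 CCAAT matches, 2 of which overlap. The G1 cyclin promoters in the table, of Ccnd3 and Ccne1, held no CHR or E2F match and are not printed.

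After 2 weeks, KO kidneys held more RNA of most replication genes and of every listed mitosis gene than WT kidneys. Ube2c, the ubiquitin-conjugating enzyme of the anaphase-promoting complex, was 5.90-fold higher, Mki67, the gene for the proliferation antigen Ki-67, 4.03-fold, and the helicase subunit gene Mcm3 2.87-fold. The G1 cyclins did not move together: Ccne1 rose 2.88-fold, Ccnd1 was 0.749 of WT, and Ccnd2, Ccnd3 and Ccne2 did not pass. In whole-kidney RNA, a change in the number of cycling cells and a change of RNA per cell cannot be told apart.

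In all, 29 of 35 members were called higher and 1 lower in KO at 2 weeks (edgeR quasi-likelihood test, Benjamini-Hochberg adjusted p under 0.05 over 17286 genes). Over all tested genes 18.2% were called higher and 13.4% lower, 31.6% in either direction. In 21 members every KO library lay above every WT library, which held for 10.3% of all tested genes. After 12 weeks 31 members were called higher and 0 lower, against 20.7% higher and 17.7% lower of all tested genes, 38.5% in either direction. At an unadjusted p under 0.05, and with DESeq2, the count of lower members at 12 weeks was also 0. Groups did not overlap for 21 members at 12 weeks either, against 10.1% of all genes. Of the members called higher, 28 were shared by the durations, 96.6% of the 2-week list and 90.3% of the 12-week list. The matching share over all called genes was not computed, so this overlap is not read as particular to the members.

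**Figure D1:**
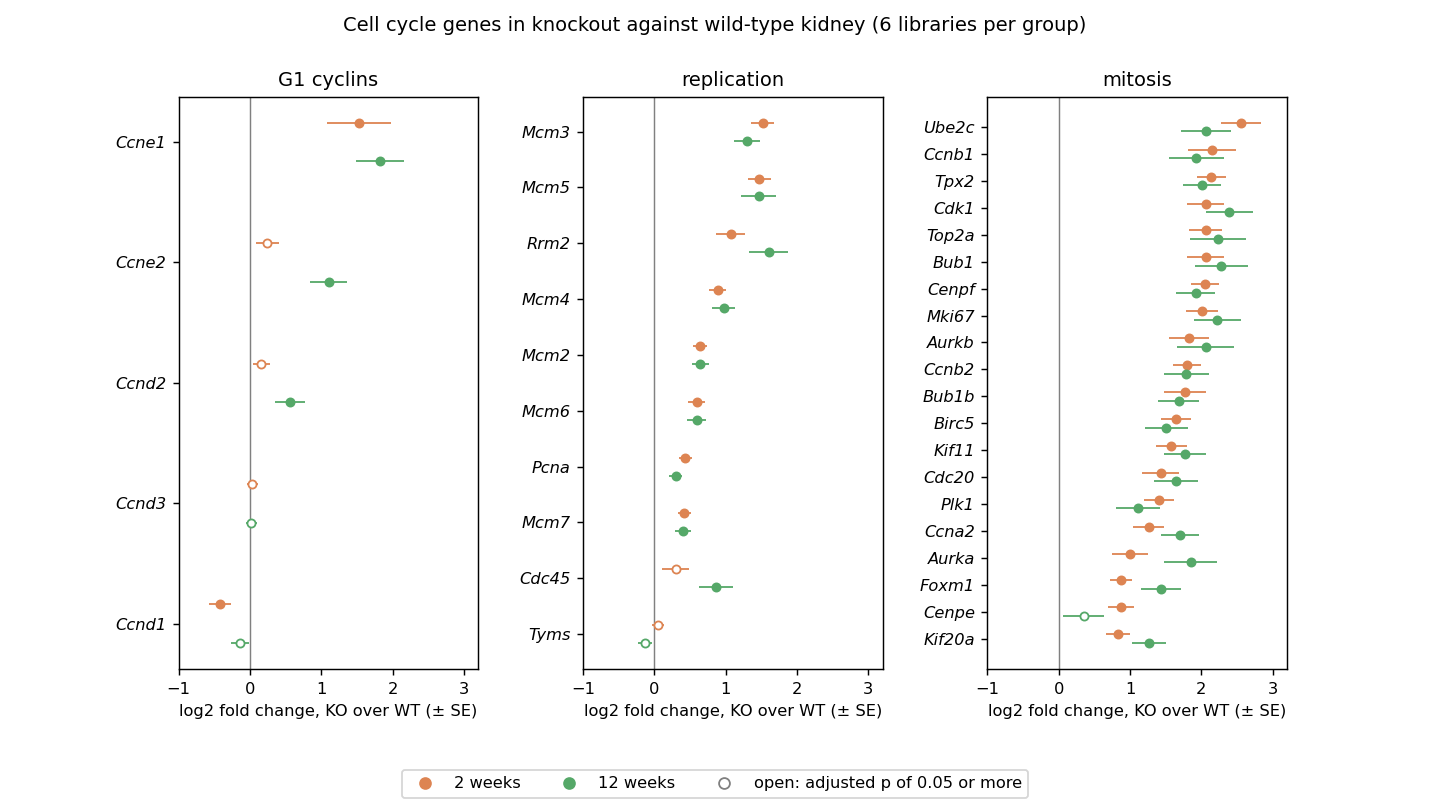
The log2 fold change of KO over WT (x axis, ± SE) of each member, by class, at 2 weeks (orange) and 12 weeks (green); open points had an adjusted p of 0.05 or more. The 20 mitosis genes lay between 0.83 and 2.56 at 2 weeks, and the 5 G1 cyclins between -0.42 and 1.53.

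Among the G1 cyclins, Ccnd1 (chromosome 7, 144929931 to 144939925, minus strand, mm10) ranged from 79.6 CPM through a median of 98.1 to 125 CPM in KO, against 107, 134 and 181 CPM in WT, at 2 weeks. The groups overlapped, with 4 KO libraries below the lowest WT library. The log2 fold change was -0.42 (SE 0.15, adjusted p = 0.039), and the call was lost, with log2 fold changes of -0.414 to -0.321 and adjusted p of 0.069 to 0.094, when any 1 of 7 of the 12 libraries was left out. These were KO replicates 1, 2, 3 and 5 and WT replicates 3, 5 and 6. At 12 weeks Ccnd1 averaged 127 ± 22.2 CPM in KO and 143 ± 26.2 CPM in WT (SD, n = 6 each), a log2 fold change of -0.14 with a 95% interval of -0.43 to 0.14 (adjusted p = 0.42). Of the exon bases of Ccnd1, 23.36% overlap LTO1 on the opposite strand, and the sources used here do not give whether reads were counted by strand. LTO1 itself had log2 fold changes of -0.038 at 2 weeks and 0.122 at 12 weeks and was not called.

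Ccne1, the E-type cyclin that partners Cdk2, was the G1 cyclin with the highest log2 fold change at both durations, at low counts. At 2 weeks its lowest, median and highest levels were 0.504, 1.26 and 1.62 CPM in KO, against 0.0671, 0.233 and 1.03 CPM in WT, from 9 to 39 counts per KO library and 1 to 20 per WT library. WT replicates 4 and 6 reached into the KO range. The log2 fold change was 1.53 (SE 0.45, adjusted p = 0.014). At 12 weeks KO libraries held 0.902, 1.32 and 2.25 CPM and WT libraries 0.197, 0.424 and 0.683 CPM, with no overlap and a log2 fold change of 1.82 (SE 0.34, adjusted p = 0.00072).

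Its paralog Ccne2 averaged 3.23 ± 0.494 CPM in KO and 2.76 ± 0.364 CPM in WT at 2 weeks, a log2 fold change of 0.24 with an interval of -0.10 to 0.58 (adjusted p = 0.28). After 12 weeks Ccne2 averaged 3.26 ± 1.16 CPM in KO and 1.54 ± 0.471 CPM in WT and was called (log2 fold change 1.10, SE 0.26, adjusted p = 0.0042). The KO means of Ccne2 were thus alike at the 2 durations while the WT mean was lower at 12 weeks. Part of Ccne2 (17.42% of exon bases) overlaps Ints8 on the other strand, which was called at neither duration (log2 fold changes 0.068 and -0.01).

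The D-type cyclin gene Ccnd2 averaged 14.4 ± 2.2 CPM in KO and 13.2 ± 1.58 CPM in WT at 2 weeks (log2 fold change 0.16, interval -0.09 to 0.40, adjusted p = 0.33). After 12 weeks Ccnd2 ranged over 16.7, 23.2 and 41.6 CPM in KO and 12.6, 16.2 and 22.9 CPM in WT, overlapping, with a log2 fold change of 0.56 (SE 0.21, adjusted p = 0.047). Without KO replicate 2, which held the 41.6 CPM, the log2 fold change was 0.363 (adjusted p = 0.083). The call was also lost without KO replicate 4, 5 or 6 or WT replicate 2, 3, 5 or 6, with log2 fold changes of 0.485 to 0.588 and adjusted p of 0.06 to 0.1. Ccnd3 differed by little: 68.1 ± 6.68 CPM in KO and 67.8 ± 6.18 CPM in WT at 2 weeks, and 87.1 ± 8.26 CPM in KO and 87.4 ± 7.75 CPM in WT at 12 weeks. Its 95% intervals were -0.13 to 0.20 and -0.14 to 0.19 on the log2 scale.

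**Figure D2:**
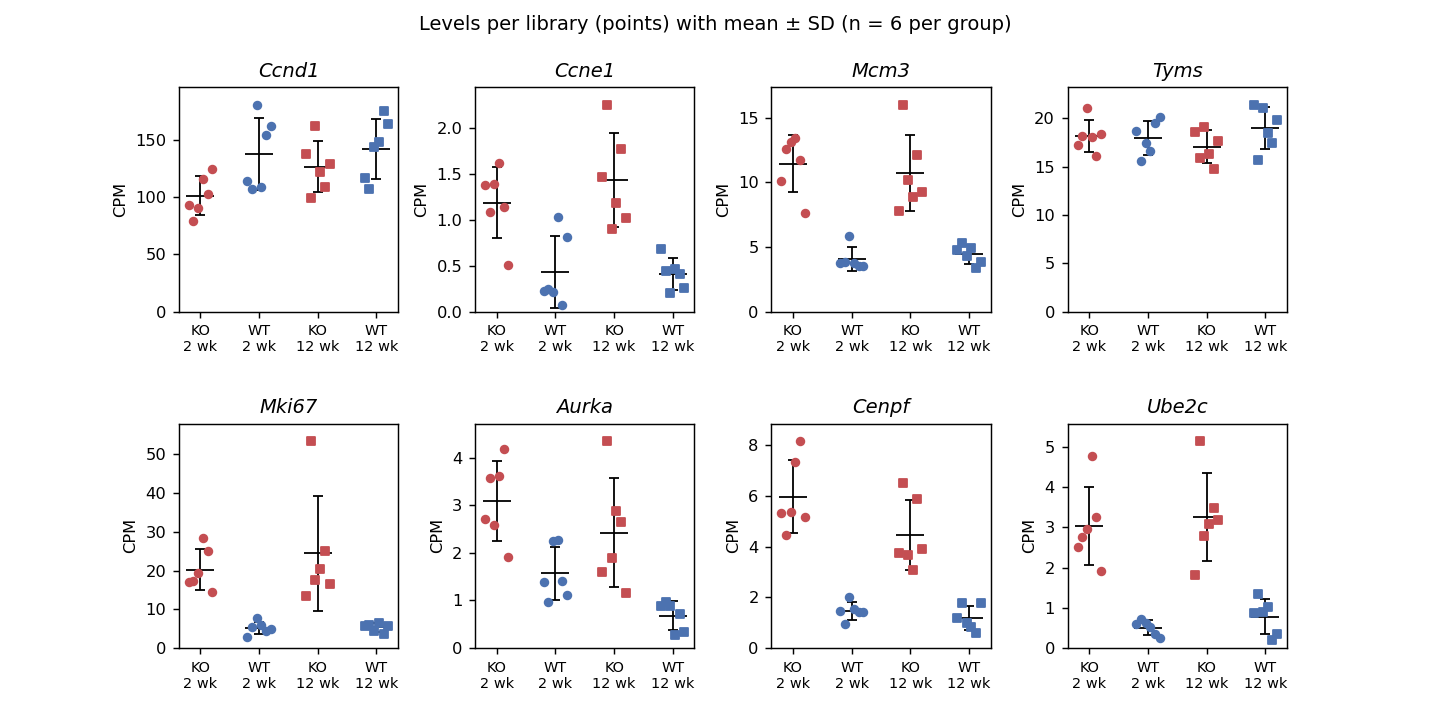
CPM (y axis) of 8 members in each library (points), with the mean ± SD of 6 libraries per group; KO red and WT blue, circles 2 weeks and squares 12 weeks. KO and WT points overlap for Ccnd1 and Tyms at both durations and are apart for Mcm3, Mki67, Cenpf and Ube2c at both.

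Of the replication genes 8 of 10 were called higher at 2 weeks and 9 of 10 at 12 weeks. Over all tested genes the shares called higher were 18.2% and 20.7%. Median log2 fold changes of the replication genes were 0.62 and 0.75, against -0.01 and 0 over all tested genes. The 6 Mcm genes encode the subunits of 1 hexameric helicase, yet their fold changes were unequal. Mcm3 (chromosome 1, 20802968 to 20820312, minus strand) ranged over 7.62, 12.1 and 13.4 CPM in KO, against 3.49, 3.76 and 5.88 CPM in WT, at 2 weeks. All 6 KO libraries lay above all 6 WT libraries (log2 fold change 1.52, SE 0.16, adjusted p = 1.4e-06). Mcm5 followed at 8.89, 11.4 and 15.4 CPM in KO, against 3.80, 4.29 and 5.25 CPM in WT (log2 fold change 1.47, SE 0.16, adjusted p = 1.5e-06).

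The other subunits changed less at 2 weeks, with log2 fold changes of 0.89 for Mcm4, 0.64 for Mcm2, 0.59 for Mcm6 and 0.42 for Mcm7. These differences between subunits were not tested. The subunits with the lowest fold changes had the highest WT levels per kilobase of exon: Mcm7 stood at 5.46 and Mcm6 at 4.30 CPM per kb in WT, against 1.09 for Mcm5 and 1.08 for Mcm3. In KO the same 4 stood at 7.14, 6.32, 2.95 and 3.04 CPM per kb. They were thus closer together in ratio than in WT but kept unequal levels. At 12 weeks the order of fold changes was again led by Mcm5 (1.46) and Mcm3 (1.30), followed by Mcm4 (0.97), Mcm2 (0.64), Mcm6 (0.59) and Mcm7 (0.40). Of the Mcm7 exon bases, 8.70% overlap Ap4m1 and Cops6 on the opposite strand, and a processed pseudogene, Gm5487, is 97.7% identical to it over 2157 bases but held 32 counts in all.

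Rrm2, the S-phase subunit of ribonucleotide reductase, had 7.13, 10.9 and 12.4 CPM in KO, against 3.64, 4.30 and 8.06 CPM in WT, at 2 weeks. WT replicate 3 lay inside the KO range, and the log2 fold change was 1.07 (SE 0.20, adjusted p = 0.00041). At 12 weeks it was the replication gene with the highest log2 fold change, 1.60 (SE 0.27, adjusted p = 0.00039), with 5.73, 9.80 and 18 CPM in KO, against 2.07, 3.49 and 4.78 CPM in WT.

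Pcna, the sliding clamp of the polymerases, rose by less, to 41.3 ± 5.49 CPM in KO against 31.2 ± 2.39 CPM in WT at 2 weeks (log2 fold change 0.43, SE 0.09, adjusted p = 0.00083). After 12 weeks Pcna stood at 37.2 ± 5.4 CPM in KO and 30.8 ± 1.92 CPM in WT (log2 fold change 0.30, SE 0.09, adjusted p = 0.017). A pseudogene 99.2% identical over 781 bases, Pcna-ps2, held 1598 counts against 14292 for Pcna, so some reads of Pcna may be counted there or the reverse. Per kilobase Pcna had the second highest level of all members in every group, behind Ccnd1.

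Cdc45, which joins the Mcm helicase when origins fire, did not pass at 2 weeks (2.56 ± 0.446 CPM in KO, 2.13 ± 0.41 CPM in WT, log2 fold change 0.30, interval -0.09 to 0.69, adjusted p = 0.24). It passed at 12 weeks (3.29 ± 1.05 CPM in KO, 1.83 ± 0.378 CPM in WT, log2 fold change 0.86, SE 0.24, adjusted p = 0.0096). Tyms, the thymidylate synthase gene, was the replication gene called at neither duration. It averaged 18.2 ± 1.68 CPM in KO and 18 ± 1.75 CPM in WT at 2 weeks, and 17.0 ± 1.69 CPM in KO and 19.0 ± 2.22 CPM in WT at 12 weeks. The 95% intervals of its log2 fold change, -0.14 to 0.24 and -0.33 to 0.08, exclude a rise of the size of Mcm2 to Mcm6. Stretches of Tyms exons are near copies of other transcribed loci, such as 355 bases at 97.7% identity to a Reep3 transcript, so its counts are less certain.

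The mitosis genes were called higher in 20 of 20 cases at 2 weeks and in 19 of 20 at 12 weeks, with median log2 fold changes of 1.79 and 1.82. In 16 of the 20 at each duration every KO library lay above every WT library. Over all tested genes 18.2% and 20.7% were called higher, and 10.3% and 10.1% were separated in this way. Mki67 (chromosome 7, 135689784 to 135716361, minus strand) had 14.4, 18.3 and 28.5 CPM in KO, against 2.94, 5.10 and 7.70 CPM in WT, at 2 weeks (log2 fold change 2.01, SE 0.22, adjusted p = 5.2e-06). At 12 weeks it had 13.5, 18.9 and 53.5 CPM in KO, against 3.66, 5.72 and 6.34 CPM in WT (log2 fold change 2.22, SE 0.33, adjusted p = 0.00029). Top2a, the topoisomerase that untangles sister chromatids, had log2 fold changes of 2.06 (adjusted p = 6.1e-06) and 2.23 (adjusted p = 0.00088), with no overlap at either duration. Per kilobase, Cdc20 and Ccnb2 were the most abundant mitosis genes in KO at 2 weeks, at 2.83 and 2.82 CPM per kb, a level below that of Mcm3 and far below the 21.5 of Ccnd1.

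Cdk1, the kinase that drives entry into mitosis, stood at 5.88 ± 1.96 CPM in KO and 1.46 ± 0.464 CPM in WT at 2 weeks, and at 5.12 ± 2.48 CPM in KO and 0.98 ± 0.4 CPM in WT at 12 weeks. With log2 fold changes of 2.06 (SE 0.26, adjusted p = 6.9e-06) and 2.39 (SE 0.33, adjusted p = 7.4e-05), its groups did not overlap at either duration. Its B-type cyclin partners rose as well. Ccnb1 reached 3.12 ± 1.08 CPM in KO against 0.716 ± 0.368 CPM in WT at 2 weeks, with KO replicate 6 at 1.06 CPM inside the WT range (log2 fold change 2.15, adjusted p = 0.00011). Pseudogenes up to 99.2% identical to Ccnb1, led by Ccnb1-ps with 80 counts against 786, make its level uncertain. Ccnb2 had log2 fold changes of 1.80 (adjusted p = 2e-06) and 1.79 (adjusted p = 0.00041).

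Ccna2, the cyclin of S phase and G2, was higher by 1.26 at 2 weeks (adjusted p = 0.0003) and 1.70 at 12 weeks (adjusted p = 0.00023), though 12.49% of its exon bases overlap Exosc9, which was not called (0.009 and 0.015). Foxm1, the forkhead factor that activates G2 and M genes, averaged 6.42 ± 0.695 CPM in KO and 3.59 ± 0.688 CPM in WT at 2 weeks (log2 fold change 0.87, SE 0.15, adjusted p = 0.00018). At 12 weeks it averaged 6.04 ± 1.7 CPM in KO and 2.28 ± 1.01 CPM in WT (log2 fold change 1.43, SE 0.28, adjusted p = 0.0012).

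Of the kinetochore and checkpoint members, Cenpf had 4.47, 5.34 and 8.18 CPM in KO, against 0.926, 1.45 and 2.03 CPM in WT, at 2 weeks (log2 fold change 2.05, SE 0.20, adjusted p = 4.9e-07). Bub1, a kinase of the spindle checkpoint, had log2 fold changes of 2.06 (adjusted p = 8.7e-06) and 2.28 (adjusted p = 0.00027), and the checkpoint protein gene Bub1b 1.77 (adjusted p = 0.00012) and 1.68 (adjusted p = 0.00046). Cenpe, the kinetochore motor, was the mitosis gene whose call did not hold at 12 weeks. It stood at 5.53 ± 1.34 CPM in KO and 3.05 ± 0.626 CPM in WT at 2 weeks (log2 fold change 0.87, adjusted p = 0.0012). At 12 weeks it stood at 5.03 ± 2.45 CPM in KO and 4.01 ± 1.66 CPM in WT (log2 fold change 0.35, interval -0.27 to 0.98, adjusted p = 0.37). KO replicate 2 held 9.98 CPM and WT replicate 5 held 7.01 CPM of Cenpe at 12 weeks, and without KO replicate 2 the log2 fold change was 0.05.

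Spindle genes rose in both comparisons. Tpx2, which activates Aurora A at spindle microtubules, had 4.70, 6.84 and 8.26 CPM in KO, against 1.12, 1.55 and 1.98 CPM in WT, at 2 weeks, the smallest adjusted p of any member (log2 fold change 2.14, SE 0.20, adjusted p = 2.7e-07). Aurka, the gene for Aurora A itself, rose less at 2 weeks, to 3.09 ± 0.842 CPM in KO against 1.57 ± 0.557 CPM in WT (log2 fold change 1.00, adjusted p = 0.0041), and stood at 2.42 ± 1.14 CPM in KO and 0.677 ± 0.3 CPM in WT at 12 weeks (log2 fold change 1.85, adjusted p = 0.0012). The passenger complex genes Aurkb and Birc5 had log2 fold changes of 1.82 and 1.64 at 2 weeks and 2.06 and 1.51 at 12 weeks. Plk1, the Polo-like mitotic kinase, rose by 1.41 and 1.11, and the bipolar spindle motor gene Kif11 by 1.58 and 1.77. Kif20a, a motor of cytokinesis, rose by 0.83 and 1.26, with the most opposite-strand overlap of any member (29.30% of exon bases, with Cdc23, which was not called).

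Ube2c and Cdc20 encode an enzyme and an activator of the anaphase-promoting complex. Ube2c had 1.91, 2.86 and 4.78 CPM in KO, against 0.248, 0.550 and 0.731 CPM in WT, at 2 weeks, the highest log2 fold change of the set (2.56, SE 0.28, adjusted p = 1.4e-06). At 12 weeks its levels were 1.81, 3.14 and 5.15 CPM in KO, against 0.203, 0.882 and 1.33 CPM in WT (log2 fold change 2.07, SE 0.35, adjusted p = 0.0004). WT counts of Ube2c were as few as 4 and 2 per library at the 2 durations. Its opposite-strand neighbour Tnnc2, over 22.77% of exon bases, held 6 counts in all libraries together. Cdc20 rose by 1.43 (adjusted p = 0.00031) and 1.64 (adjusted p = 0.00086), with 2.84% of exon bases shared with an opposite-strand gene.

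Opposite-strand overlaps were also annotated for Ccnd2 (7.86% of exon bases), Plk1 (7.09%), Cdc45 (5.96%) and Ccnd3 (4.11%). Near copies of stretches at other transcribed loci were found for further members, among them Ccnd3, Cenpf, Ube2c and Birc5. In Cenpf, for example, 187 bases were 95.7% identical to a Klhl24 transcript. The counts of these members thus carry a limit like that of Tyms.

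**Figure D3:**
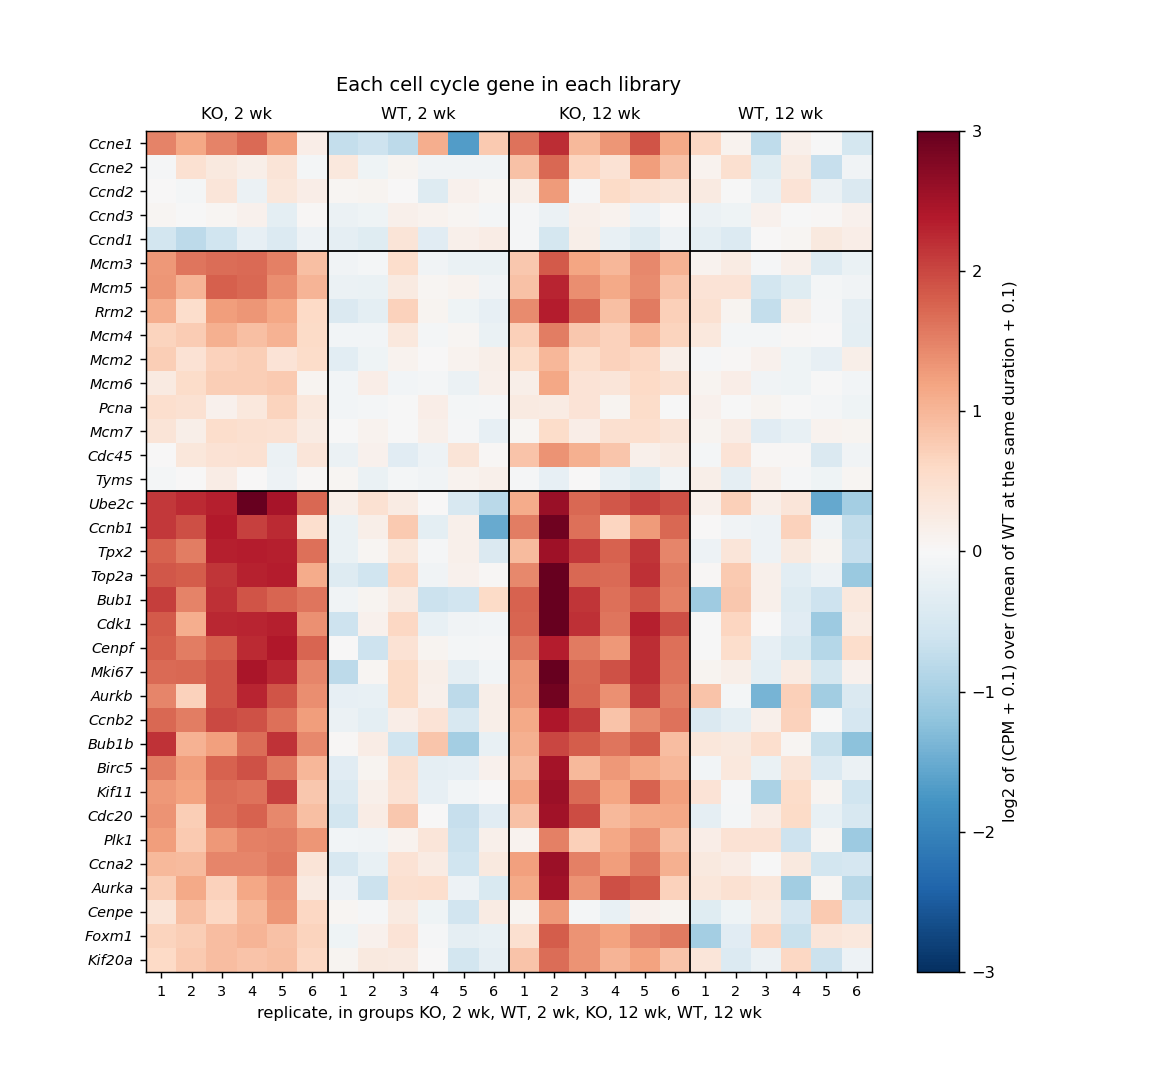
Each member (rows, by class) in each of the 24 libraries (columns), as log2 of CPM plus 0.1 over the WT mean at the same duration plus 0.1; red is above and blue below WT, and colours stop at -3 and 3. The mitosis rows are mostly red in the 12 KO libraries and the replication rows mostly paler, and the mitosis rows of KO replicate 2 at 12 weeks are the reddest column, with a median ratio to WT of 6.17.

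The classes were then set against each other. At 2 weeks 13 of 20 mitosis genes had a higher log2 fold change than the top replication gene, Mcm3 (1.52), and at 12 weeks 15 of 20 exceeded Rrm2 (1.60). A log2 fold change of at least 1 was reached by 17 of 20 mitosis genes and 3 of 10 replication genes at 2 weeks, and by 19 of 20 and 3 of 10 at 12 weeks. The same order held in single libraries. Each gene was divided by its WT mean at the same duration, and the median over the mitosis genes was 2.33 to 3.95 in KO libraries and 0.756 to 1.37 in WT libraries at 2 weeks, and 2.32 to 6.17 in KO and 0.692 to 1.21 in WT at 12 weeks. The median over the replication genes was 1.38 to 1.68 in KO and 0.935 to 1.04 in WT at 2 weeks, and 1.36 to 2.44 in KO and 0.922 to 1.10 in WT at 12 weeks. For the G1 cyclins it was 0.996 to 1.27 in KO and 0.887 to 1.05 in WT at 2 weeks, and 1.12 to 2.42 in KO and 0.848 to 1.14 in WT at 12 weeks. The mitosis median exceeded the replication median, and the replication median the G1 cyclin median, in 6 of 6 KO libraries at 2 weeks and 6 of 6 at 12 weeks. In KO replicate 2 at 12 weeks the replication and G1 cyclin medians were nearly equal, at 2.44 and 2.42. The order of the classes describes fold changes and not amounts. Summed replication genes stood at 162 to 201 CPM and summed mitosis genes at 85.4 to 151 CPM in KO at 2 weeks.

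KO replicate 2 at 12 weeks stood apart. It held the highest level of its group for all 20 mitosis genes, 8 of 10 replication genes and 31 of 35 members, and its mitosis genes summed to 231 CPM, against 77.9 to 123 CPM in the other 5 KO libraries and 27.8 to 41.6 CPM in WT. Without it 30 members were called higher and 0 lower at 12 weeks (Ccnd2 lost), and the class medians were 1.59 for mitosis, 0.64 for replication and 0.36 for G1 cyclins. The 2-week KO libraries had no such leader: replicates 5, 4 and 3 were highest for 9, 7 and 4 of the mitosis genes. Among WT libraries at 2 weeks, replicate 3 was highest for 13 of 20 mitosis genes and 19 of 35 members, with a mitosis sum of 54.2 CPM against 31.7 to 41.6 CPM in the other 5.

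Markers of several other cell types moved with genotype and with that library, and their part in the results was not tested. Over all tested genes 18.2% were called higher at 2 weeks and 20.7% at 12 weeks, so a count such as 2 of 6 is not far from these shares. All 10 macrophage markers were called higher at both durations, and their sum was 994 to 2200 CPM in KO and 305 to 399 CPM in WT at 2 weeks, and 1220 to 2550 CPM in KO and 273 to 643 CPM in WT at 12 weeks. Of 8 T cell markers 7 were called higher at each duration, with sums of 12.7 to 25.2 CPM in KO and 5.43 to 7.95 CPM in WT at 2 weeks, and 22.2 to 100 CPM in KO and 4.77 to 12.2 CPM in WT at 12 weeks. Fibroblast markers were called higher in 6 of 8 cases at 2 weeks and 8 of 8 at 12 weeks, with sums of 528 to 1420 CPM in KO and 149 to 218 CPM in WT, and 575 to 1500 CPM in KO and 130 to 431 CPM in WT. B and plasma cell markers passed in 2 of 6 cases at each duration (49.1 to 311 CPM in KO and 26 to 50 CPM in WT, then 58.3 to 1280 CPM in KO and 18.1 to 109 CPM in WT), and neutrophil markers in 3 of 3 tested.

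Neutrophil marker sums were 10.9 to 22.9 CPM in KO and 3.42 to 8.61 CPM in WT at 2 weeks and 6.34 to 15 CPM in KO and 1.42 to 5.88 CPM in WT at 12 weeks, with Mpo at 0 in KO at 2 weeks and Ly6g at 0 in both genotypes at 12 weeks. Proximal tubule markers were called lower in 6 of 8 cases at 2 weeks and 7 of 8 at 12 weeks, with sums of 4800 to 7340 CPM in KO and 7690 to 10300 CPM in WT, and 4630 to 7320 CPM in KO and 8660 to 12200 CPM in WT. Distal nephron markers were called lower in 4 of 6 cases at 2 weeks and 3 of 6 at 12 weeks, endothelial markers in 2 of 6 and 3 of 6, and no erythroid marker was called higher. Over all tested genes 13.4% were called lower at 2 weeks and 17.7% at 12 weeks. KO replicate 2 at 12 weeks had the highest macrophage, T cell, fibroblast and B cell sums (2550, 100, 1500 and 1280 CPM) and the lowest proximal tubule sum (4630 CPM) of its group. At 2 weeks the mitosis sums of KO replicates 4, 5, 3, 1, 2 and 6 were, in that order, 151, 149, 130, 111, 100 and 85.4 CPM, beside T cell sums of 19.2, 24, 25.2, 16.2, 15.3 and 12.7 CPM. The proximal tubule sums of the same libraries were 6150, 5060, 4800, 6360, 6950 and 7340 CPM. The 3 libraries with the highest mitosis sums thus had the 3 highest T cell and the 3 lowest proximal tubule sums, and replicate 6 was lowest for mitosis, macrophage (994 CPM) and T cell sums and highest for proximal tubule markers. Fibroblast sums were likewise highest in replicates 3, 5 and 4 (1420, 999 and 740 CPM), with replicate 1 next at 727 CPM. Their lowest value was in replicate 2 (528 CPM). Macrophage sums followed less closely, with 1310 CPM in replicate 4 and 2200 CPM in replicate 3. This match of ranks did not hold in every group. At 12 weeks KO replicate 3 had a mitosis sum of 109 CPM, with the lowest T cell (22.2 CPM) and highest proximal tubule sum (7320 CPM) of its group. At 2 weeks WT replicate 3 had both the highest mitosis sum (54.2 CPM) and the highest proximal tubule sum (10300 CPM) of its group.

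**Figure D4:**
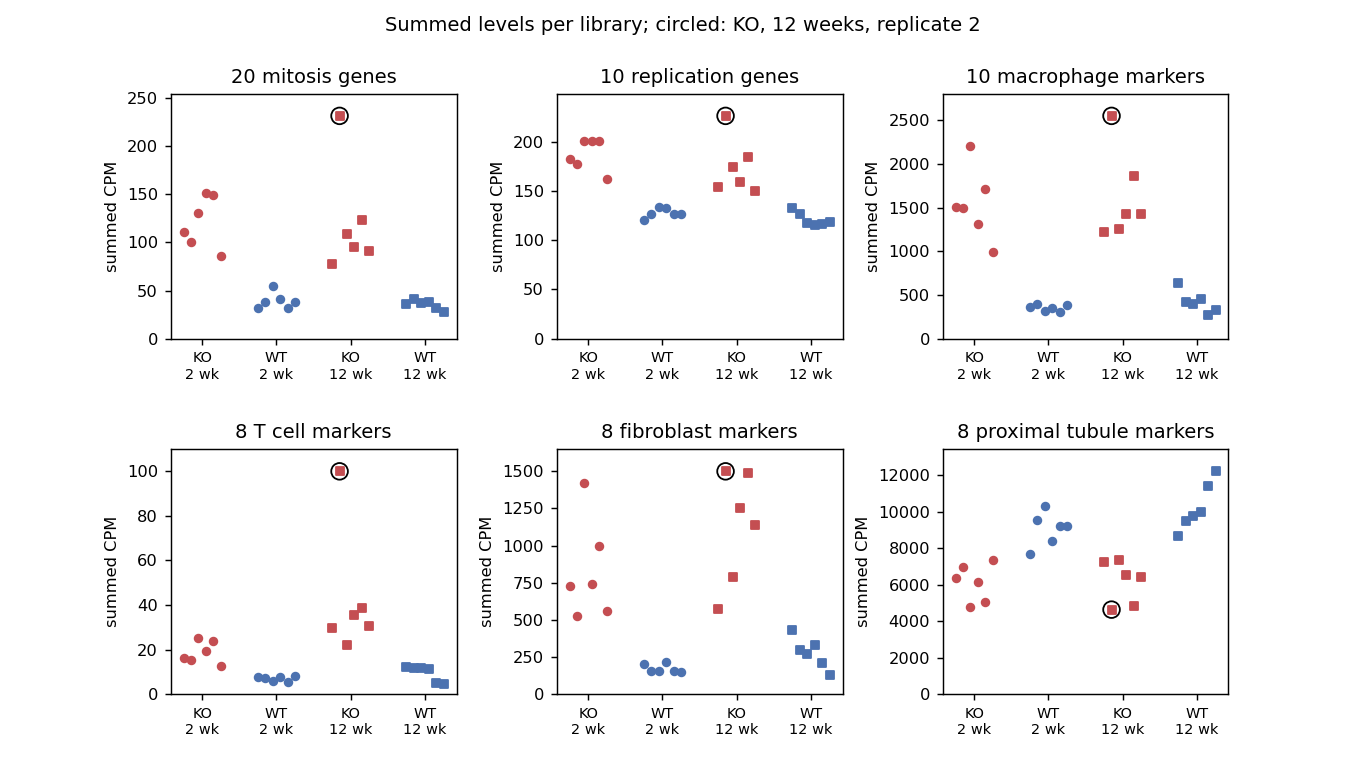
Summed CPM per library of the mitosis and replication genes and of 4 marker lists; KO red, WT blue, circles 2 weeks, squares 12 weeks, with KO replicate 2 at 12 weeks ringed. The ringed library is highest in its group in 5 panels and lowest for proximal tubule markers, and at each duration KO and WT sums do not overlap in any panel.

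Whether the KO difference depended on duration was tested by the interaction, and 0 members were higher and 0 lower by edgeR, by which 0.174% of all tested genes passed in either direction. DESeq2 also called 0 members, while calling 91 of all tested genes higher and 63 lower. By edgeR, 1 member had an unadjusted p under 0.05. That member was Ccne2, with an interaction of 0.85 on the log2 scale (interval 0.24 to 1.47, adjusted p = 0.26). Intervals for the mitosis genes were wide, such as -0.63 to 1.06 for Mki67 and -0.07 to 1.78 for Aurka, so changes of that size cannot be told from none here.

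Between 12 and 2 weeks within KO, Ccnd2 (log2 fold change 0.79, adjusted p = 0.00068) and Ccnd3 (0.35, adjusted p = 0.001) were called higher and 0 members lower, against 17.7% higher and 16.1% lower of all genes. DESeq2 also gave 0 lower, as did an unadjusted p under 0.05. Without KO replicate 2 at 12 weeks, 1 member, Birc5, was called lower (log2 fold change -0.753, adjusted p = 0.0043). Within WT, Ccnd3 was called higher at 12 weeks (0.37, adjusted p = 0.00076). Ccne2 (-0.84, adjusted p = 0.0048), Aurka (-1.21, adjusted p = 0.0087) and Foxm1 (-0.65, adjusted p = 0.034) were called lower, against 15.8% higher and 14.7% lower of all genes. The Foxm1 call was lost without WT replicate 2 or 3 at 2 weeks or 1, 2 or 4 at 12 weeks (adjusted p of 0.061 to 0.084), and Ccnd2 was called higher in WT as well (0.361, adjusted p = 0.045) without KO replicate 2 at 12 weeks. These duration contrasts share libraries with the genotype contrasts and carry the difference in depth given above.

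A further 92 cell cycle genes, in 8 lists, were examined beside the members, and 90 of them were tested (Cdkn2a and Cdc25c were not). At 2 weeks 58 were called higher and 1 lower, with a median log2 fold change of 0.60, and at 12 weeks 60 were called higher and 4 lower, with a median of 0.72. Over all tested genes 18.2% were called higher and 13.4% lower at 2 weeks, and 20.7% and 17.7% at 12 weeks. These shares stand beside the counts of each list below. Of the G1 kinase and pocket protein genes, 5 of 9 were higher at 2 weeks and 6 higher and 1 lower (Rbl2, -0.24, against an uncalled -0.08 at 2 weeks) at 12 weeks. Cks1b, a small subunit of Cdk complexes, had 1.40 and 0.98, Cdk6 had 0.55 at 2 weeks but was not called at 12 weeks (0.13, adjusted p = 0.28). Skp2, the ubiquitin ligase subunit that targets p27, had 0.59 at 12 weeks and was not called at 2 weeks (0.32, adjusted p = 0.061).

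Of 6 tested Cdk inhibitor genes, 2 were higher at 2 weeks and 3 at 12 weeks, beside 18.2% and 20.7% of all tested genes. Cdkn1a, the gene for p21, stood at 25.8 ± 2.49 CPM in KO and 9.73 ± 1.65 CPM in WT at 2 weeks (log2 fold change 1.44, SE 0.11, adjusted p = 2.1e-08) and at 28.8 ± 2.16 CPM in KO and 8.19 ± 2.42 CPM in WT at 12 weeks (1.84, SE 0.17, adjusted p = 3.2e-06). Cdkn2b, the gene for p15, rose by 1.13 (adjusted p = 0.0077) and 1.84 (adjusted p = 0.00029).

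Among E2F and Myb family factors 5 of 11 were higher at 2 weeks and 4 higher and 1 lower (E2f5, -0.22, not called at 2 weeks) at 12 weeks, among them the atypical repressors E2f8 (2.29 and 3.12) and E2f7 (1.63 and 2.48). Origin licensing and fork genes were higher in 16 of 25 cases at 2 weeks and 19 of 25 at 12 weeks, among them Uhrf1, which recruits maintenance DNA methylation (2.24 and 1.96). Rrm1, the large partner subunit of Rrm2, rose by 0.67 and 0.75, and the DNA ligase gene Lig1 by 0.96 and 1.14.

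In the G2 checkpoint list 5 of 6 tested genes were higher at 2 weeks and 4 of 6 at 12 weeks, among them the Cdk1 phosphatase gene Cdc25b (0.61 and 0.78), the inhibitory kinase gene Pkmyt1 (1.60 and 1.46) and Ccnf (1.40 and 1.86). Kinetochore and checkpoint genes were higher in 9 of 12 cases at 2 weeks and 8 of 12 at 12 weeks, including Ndc80 (2.34 and 2.53), with Knl1 at 1.79 and 2.30 and Nuf2 at 1.85 and 2.02. Spindle and cytokinesis genes were higher in 10 of 12 cases at both durations, including Anln (2.04 and 1.69) and Racgap1 (1.37 and 1.81). Condensin and separase genes were higher in 6 of 9 cases at both durations, including Ncapg (1.87 and 2.53), the separase gene Espl1 (2.22 and 1.99) and Ncaph (1.53 and 1.52), and 1 was lower at 12 weeks (Cks2, -0.31, not called at 2 weeks).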

How the data were processed

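Kidney RNA was sequenced in 24 libraries. Per the labels' protocols, a Maxwell RSC simplyRNA kit gave the RNA and a NEBNext Ultra kit the libraries. The authors deposited raw counts per Ensembl gene, 1 library per file; per the submitters' processing notes these came from fastp, STAR 2.5, HTSeq 0.6.1 and the build mm10, with options, strand setting and annotation not given in the sources used here. GENCODE M21 gave symbols and positions for 54409 of 54532 identifiers; the other 123 held at most 0.0581% of a library. Symbols came from the annotation and groups from the labels.

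Counts were tested in edgeR 4.0.16 under R 4.3.3 (TMM, robust quasi-likelihood F test, two-sided), after filterByExpr (minimum count 10, total 15) over 24 libraries. Genotype was fitted on the 12 libraries of each duration, and the interaction and durations on all 24. The SE is the absolute log2 fold change over the square root of F, and intervals are 95%. The fit was also run on simulated counts with the same spread setting for every gene. That setting is simpler than these data, so the run checks the code and not the calls. The alternatives, DESeq2 1.42.0 among them, are given in the closing section.

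The members and gene lists were chosen with earlier results of these data known. Named genes are Lrp2, all members and, per pathway list and comparison, up to 2 called genes per direction with the smallest adjusted p. A few other genes, named as overlapping or near-identical loci, were outside that rule. One gene of a pathway list that the rule names is counted but not reported here. D cyclin proteins were planned but not used here. Residuals of same-numbered libraries correlated between -0.28 and 0.17, so no pairing by replicate number was seen over all tested genes. A pairing that affects only some genes could be missed. No 2 libraries of the same group were close enough to be duplicates, and pairs across groups were not compared. Figures used Python 3.11.15 and matplotlib 3.10.9.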

Additional observations from a re-analysis of the deposited data

Results flagged for a closer look

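In 20 of 140 member and group combinations, 1 of the 6 libraries stood apart from the others by the gap to its nearest neighbour. The cutoff flags about 1 in 20 where values are normally distributed. Members are measured in the same libraries and are not independent, so the 20 of 140 is not a test against that rate. In 14 of the 20 the library standing apart was KO replicate 2 at 12 weeks, always as the highest. Its mitosis values, each with the next highest KO library after it, were 53.5 and 25.1 CPM for Mki67, 39.3 and 17.5 for Top2a, 9.90 and 5.37 for Cdk1, 6.44 and 2.76 for Ccnb1 and 14.1 and 7.02 for Ccna2. For the remaining mitosis genes they were 9.98 and 4.36 CPM for Cenpe, 4.99 and 2.62 for Bub1, 7.65 and 4.30 for Aurkb, 11.3 and 6.49 for Kif11 and 7.57 and 3.23 for Birc5. Among the other classes they were 20 and 13.7 CPM for Mcm4, 20.9 and 11.6 for Mcm5, 40.9 and 27.6 for Mcm6 and 41.6 and 25.8 for Ccnd2. The same library led its group in macrophage, T cell and B cell marker sums, though not in neutrophil markers (14 CPM, against 15 CPM in KO replicate 5), and the part of these in its values was not tested.

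The others were spread over 2-week libraries. KO replicate 6 was lowest for Ccnb1 (1.06 CPM, next 3) and KO replicate 5 lowest for Ccnd3 (55.4 CPM, next 67.5). WT replicate 3 was highest for Mcm3 (5.88 CPM, next 3.85) and Rrm2 (8.06 CPM, next 5.21). WT replicate 4 was highest for Pcna (35.9 CPM, next 30.9) and lowest for Ccnd2 (10 CPM, next 13.2).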

How the results depend on the processing

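The counts of members called higher were 28 or 29 at 2 weeks and 30 or 31 at 12 weeks under the alternatives run; the 28 arose where Ccne1 fell under 1 CPM and was not tested. The alternatives were RLE and upper-quartile scaling, DESeq2, testing 34329 genes with no filter, testing 15285 genes that averaged 1 CPM or more, a replicate block, all 24 libraries in 1 fit, and each library left out. The lower count at 2 weeks, Ccnd1, was 0 with no filter, where its log2 fold change was -0.419 with adjusted p = 0.11, and 0 or 1 with a library left out. Between durations the lower count in KO was 0 to 1 and the higher count in WT 1 to 2 with a library left out, the upper value in each case without KO replicate 2 at 12 weeks (Birc5 lower in KO, Ccnd2 higher in WT); the cause was not tested. Class medians at 2 weeks spanned 1.68 to 1.88 for mitosis, 0.58 to 0.67 for replication and 0.09 to 0.22 for G1 cyclins, and at 12 weeks 1.59 to 1.92, 0.64 to 0.83 and 0.30 to 0.67. Single members near 0 changed sign: Tyms at 2 weeks spanned 0.000 to 0.086 with a library left out, the lowest without KO replicate 3. Ccnd3 at 12 weeks was -0.006 with all 24 libraries in 1 fit and -0.011 to 0.057 with a library left out, below 0 without WT replicate 1 or 2 or KO replicate 3 or 4. Of 1778 recomputed values of single members, 22 lost their call, all of Ccnd1, Ccnd2 or Foxm1, and 1750 kept direction and call. Uncalled duration and interaction values under 0.5 in size were left out of the 1778. The calls gained by Birc5, Ccnd2 and Ccnd1 between durations, named in this section, were among those left out. With the replicate number as a block, the counts were 29 higher and 1 lower at 2 weeks and 31 and 0 at 12 weeks, and 3 members rather than 2 were higher at 12 than at 2 weeks in KO, with Ccnd1 added (0.321, adjusted p = 0.03). Ccnd2 at 12 weeks lost its call with no filter (0.567, adjusted p = 0.11). Depth limits low members such as Ccne1, Ube2c, Bub1 and Ccnb1, whose lowest WT libraries held as few as 1 to 5 counts.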
